A study of Mus musculus with 8 samples.

Results

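Ribosomal protein genes were taken from the gene table by name, as the symbols made of Rpl or Rps and a number, with at most a closing a, l or x and a closing 1, together with Rplp0, Rplp1, Rplp2 and Rpsa. The rule gave 85 of the 36048 genes. Of these, 47 belong to the large subunit, 31 to the small subunit, and 7 are paralogues of another member: Rpl3l, Rpl7l1, Rpl10l, Rpl22l1, Rpl39l, Rps27l and Rps4l. Rpl6l, a gene named for its likeness to Rpl6, was counted with the large subunit. All 85 were located on GRCm38 (RefSeq), on 19 chromosomes.

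RNA came from mouse skeletal muscle, with 3 libraries of endothelial cells (EC), which line the vessels, 2 of satellite cells (SC, numbered 1 and 3), which are the muscle stem cells, and 3 of single muscle fibres (SMF), the contractile cells. For EC and SC, about 100000 cells were obtained by flow sorting of dissociated hindlimb. For SMF, 100 fibres of 1 muscle, the EDL, were picked by hand after resting for 3 h. No treatment or genetic change is named for any group, and strain, age and number of animals are not given in the labels. In the comparisons with SMF, cell type, muscle and way of isolation therefore cannot be told apart, whereas EC and SC were both sorted from hindlimb. A p-value here speaks of scatter among these 8 libraries alone, part of which may be technical.

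The cytosolic ribosome is built from a small subunit, which reads the messenger RNA, and a large subunit, which joins the amino acids. Each ribosomal protein is usually present once in a ribosome, and the genes for them are known to be expressed in step. Many of their messenger RNAs start with a tract of pyrimidines, through which the mTOR pathway controls their translation. Rpl3l is known as the heart and skeletal muscle version of Rpl3, a protein that reaches towards the site where peptide bonds form.

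Because many ribosomal protein genes have processed copies elsewhere in the genome, the sequences decide what a read of 50 bases can tell apart. The centre of the Rpl3 coding sequence (bases 577 to 636, counted from the start codon) is shown with the same stretch of its named pseudogene and of its paralogue, with differences from Rpl3 in capitals (GENCODE M39 transcripts, GRCm39):
Rpl3, chromosome 15: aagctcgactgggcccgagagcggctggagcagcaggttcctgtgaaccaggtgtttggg
Rpl3-ps1, chromosome X: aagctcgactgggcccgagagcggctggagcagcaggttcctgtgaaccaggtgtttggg
Rpl3l, chromosome 17: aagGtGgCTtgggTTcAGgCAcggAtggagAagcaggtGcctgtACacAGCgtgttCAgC
Rpl3-ps1 had 0 differences in these 60 bases and was 99.8% identical over 1209 aligned bases, while Rpl3l had 21 differences and was 74.9% identical over 1205. The longest run that Rpl3 and Rpl3l share was 22 bases, shorter than a read.

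The same stretch at the centre of Rps23 (bases 187 to 246) is shown with its 2 named pseudogenes, because the values of this gene turn on them:
Rps23, chromosome 13: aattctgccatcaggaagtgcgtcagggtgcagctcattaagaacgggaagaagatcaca
Rps23-ps1, chromosome 3: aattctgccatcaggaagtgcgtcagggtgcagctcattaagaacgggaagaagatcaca
Rps23-ps2, chromosome 8: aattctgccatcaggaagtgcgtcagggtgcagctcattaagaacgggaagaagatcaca
All 3 were identical here. Over the coding sequence, Rps23-ps1 matched Rps23 in 425 of 425 aligned bases and Rps23-ps2 in 430 of 432.

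Levels are given as FPKM, fragments scaled to transcript length and library size, which are given per length and can be compared between genes. The median member stood at 31.3, 54.9 and 31.8 in EC 1 to 3, at 111.9 and 106.2 in SC 1 and SC 3, and at 14.0, 14.3 and 15.2 in SMF 1 to 3. SC lay above EC, and EC above SMF, with no overlap between the groups. Summed over the 85 genes, the members reached 16406 and 15724 in SC, 4462, 7157 and 4334 in EC and 2191, 2264 and 2488 in SMF. In bulk samples, fewer cells of a type and less RNA per cell cannot be told apart.

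The 10 most abundant rows of each library held 63.7% to 78.9% of its FPKM, so the members' share of the whole moved with those rows too. Outside these rows, the members took 3.43% and 3.81% in SC, 1.08%, 2.33% and 1.16% in EC, and 0.693%, 0.725% and 0.723% in SMF. The order of the groups was the same by both measures, but that of EC and SMF depended on the scaling of the libraries, as given below.

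**Figure D1:**
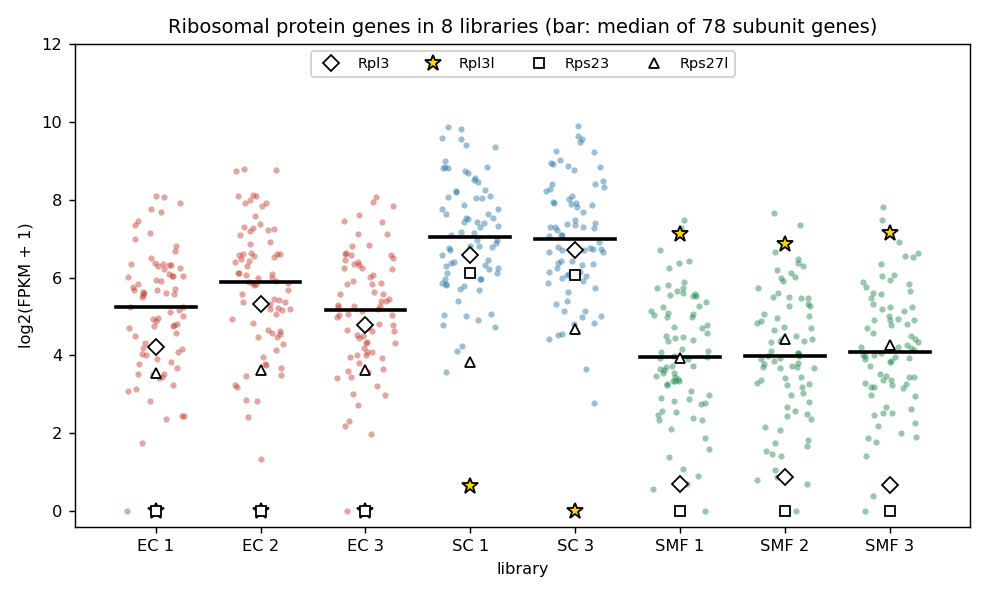
Levels of the ribosomal protein genes in each library, as log2(FPKM + 1). Dots are the 78 subunit genes, black bars their medians, and the marked genes are Rpl3, its paralogue Rpl3l, Rps23 and Rps27l; the bars of both SC libraries lie above those of EC, Rpl3 and Rpl3l change places in SMF, and Rps23 is listed at 0 outside SC.

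Within a group, the 78 subunit genes spread widely. Their group means ran from 8.36 (Rpl30) to 926 (Rpl4) in SC with a median of 117, up to 320 (Rps24) in EC and up to 201 (Rplp1) in SMF. These are the gene rows alone. In SC the Rpl30 row held 5.41% of the FPKM of the gene and its named pseudogenes, so its low place depends on how reads were assigned. The gene rows with the highest mean over all libraries were Rpl4 and Rpl8, both of the large subunit, Rplp1 of the stalk, Rps24 of the small subunit and Rpl13a, a large subunit protein also known for a role in silencing inflammatory messages. This order, too, depends on how reads were assigned. Over all libraries, the Rpl31 row held 10.3% of the FPKM of the gene and its named pseudogenes, and the Rpl17 row 4.95%. Rpl4, which lines the exit tunnel, stood at 239, 432 and 247 in EC, 905 and 946 in SC and 154, 163 and 178 in SMF.

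The comparison of SC with EC asked where stem cells and vessel cells of the muscle differ. In SC, 75 of the 83 tested members were called higher and 1 lower, against 21.2% higher and 16.4% lower (37.7% either way) among all 16700 tested genes (limma on log2(FPKM + 1), adjusted p under 0.05 over all genes). The median member differed by 1.61 on the log2 scale, while the median gene differed by 0.11. The lower member was the paralogue Rps4l. By subunit, 43 of 47 large and 30 of 31 small subunit genes were called higher.

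Taking each gene's row alone, the largest differences among subunit genes, apart from Rps23, were those of Rps13, Rpl9 and Rpl10a. Rps13, a small subunit protein at the interface of the subunits, stood at 4.19, 4.33 and 2.93 in EC and 26.5 and 27.5 in SC, a log2 difference of 2.55 ± 0.19 (SE, limma adjusted p = 3.5e-05). Both SC libraries lay far above the 3 of EC, and SMF, at 4.04, 3.24 and 3.01, overlapped EC. Rpl10a, of the large subunit's L1 stalk, rose by 2.35 ± 0.17 (limma adjusted p = 3.77e-05). Rpl9 rose by 2.26 ± 0.50 (limma adjusted p = 0.00914), but not without SC 1 (2.12, adjusted p = 0.0598). With the rows of their named pseudogenes added, the differences were 1.57 for Rps13, 1.55 for Rpl9 and 2.06 for Rpl10a, beside a median of 1.51 over the members summed in this way, so the rank of Rps13 and Rpl9 rests on how reads were assigned.

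Among the smallest differences were those of Rpl30 (0.41 ± 0.27), Rpl29 (1.04 ± 0.35) and Rpl7a (1.07 ± 0.26). Rpl30 was not called (limma adjusted p = 0.279), and neither was Rpl29 (0.0516), which was called without EC 2 (1.34, adjusted p = 0.0123). With pseudogene rows added, 78 members were called higher, among them Rpl30 (1.41, adjusted p = 0.00202), Rpl29 (1.08, 0.0422) and Rps27a (1.69, 0.00820). Rpl7a lost its call without SC 1 (0.73, adjusted p = 0.108) or with the top 50 genes left out of the scaling (0.71, adjusted p = 0.0587). The other subunit genes not called were Rpl17, Rpl27 and Rps27a. Rps27a, made as a fusion with ubiquitin, stood at 12.8, 1.55 and 3.54 in EC and 16.2 and 11.5 in SC. Rps27a was called without EC 1 (2.11, limma adjusted p = 0.0293), and Rpl27 without SMF 2 (1.63, adjusted p = 0.00724), which enters through the shared spread.

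Among the EC libraries, EC 2 lay highest for 66 of the 78 subunit genes, by a median of 0.67 on the log2 scale over the mean of EC 1 and EC 3. Without it, 76 members were called higher and 1 lower. The same library was low in markers of several other cell types. In EC 2, 8 pericyte markers summed to 226 against 580 and 698 in the others. The 8 immune markers summed to 14.5 against 60.3 and 83.5, and 5 erythroid markers to 270 against 575 and 582. The 8 satellite cell markers went the other way, at 24.6 in EC 2 against 17.9 and 16.5. The part of any of these markers in the level of EC 2 was not tested.

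The comparison of SC with SMF set the stem cell beside the fibre it can form. In SC, 81 of 83 members were called higher, 1 lower (Rpl3l) and 1 not called (Rps27l), against 56.5% higher and 8.57% lower (65.1% either way) among all genes. The median member differed by 2.85 and the median gene by 0.93. All 47 large and all 31 small subunit genes were called higher. Apart from Rps23, the largest differences were those of Rpl3 (5.91 ± 0.29), Rps4x (4.40 ± 0.28) and Rps19 (4.16 ± 0.21). Rpl15 had the smallest (0.98 ± 0.17), and under all 3 other scalings of the libraries its sign turned, to -0.01 to -0.69.

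SMF and EC were compared as the 2 groups with the lower levels. In SMF, 68 of 83 members were called lower, 2 higher (Rpl3l and Rps27l) and 13 not called, against 55.5% lower and 10.8% higher among all genes. The share lower was thus above that of all genes, but the direction of this comparison depended on how the libraries were scaled. The median member differed by -1.30 with the deposited scaling, by -0.65 when the 50 most abundant genes of each group were left out of the scaling, by 0.03 with median-of-ratios and by 0.34 with upper-quartile scaling, and the counts called lower were 32, 7 and 4 under these 3. The counts called higher were 3, 11 and 18. These scalings moved the median of all genes from -0.85 to -0.55, -0.20 and -0.03.

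For SC the direction did not turn: 54 to 69 members were called higher than in EC and 58 to 75 higher than in SMF with the 3 other scalings. The median member differed by 1.25 to 1.53 and by 1.14 to 1.86.

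**Figure D2:**
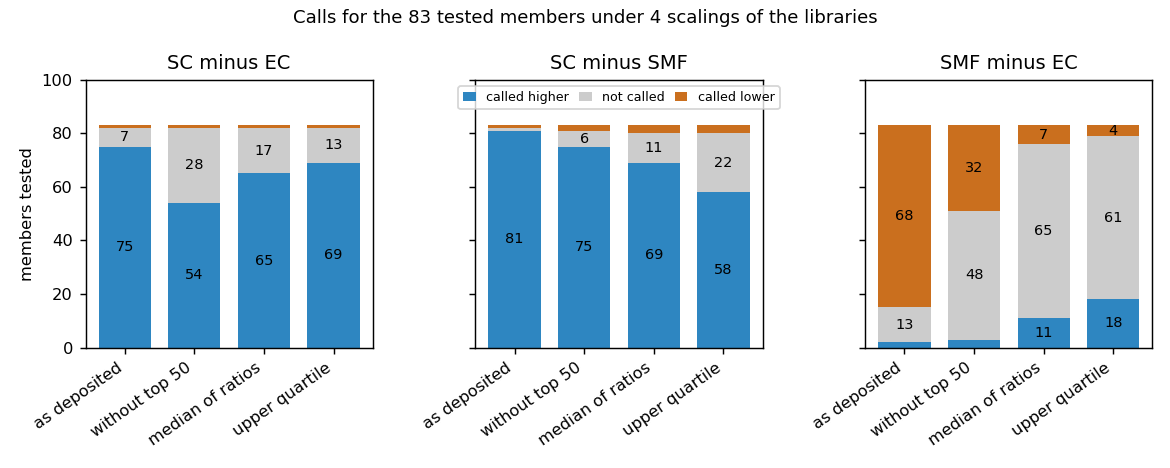
Number of the 83 tested members called higher, lower or not called (vertical axis) in each comparison under 4 scalings of the libraries. The SC comparisons stay mostly blue (called higher) under every scaling, while the orange part (called lower) of SMF minus EC shrinks from 68 to 4.

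By place in the large subunit, the stalk proteins Rplp0, Rplp1 and Rplp2, which recruit elongation factors, were all called higher in SC than in EC and in SMF, where the shares over all genes were 21.2% and 56.5%; the same shares stand behind each list that follows. Rplp0 stood at 111, 151 and 114 in EC, 452 and 467 in SC, and 84.8, 81.5 and 98.9 in SMF. Rpl5 and Rpl11, which carry the 5S ribosomal RNA and also bind Mdm2, rose in SC over EC by 1.82 ± 0.27 and 1.48 ± 0.38 (limma adjusted p = 0.00138 and 0.0180). Rpl11 lost that call without SC 1 (1.54, adjusted p = 0.0716) or SC 3 (1.42, adjusted p = 0.0887), and with the top 50 genes left out of the scaling (1.12, adjusted p = 0.0893).

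Of 9 proteins at the exit tunnel, through which the new chain leaves the ribosome, 8 were called higher in SC than in EC and 9 higher than in SMF, against 21.2% and 56.5% of all genes. Rpl26 stood at 141, 273 and 137 in EC, 445 and 488 in SC and 47.9, 43.3 and 49.9 in SMF. Rpl26 lost its call against EC without SC 3 (1.35, limma adjusted p = 0.0553) or with the top 50 genes left out of the scaling (1.05, adjusted p = 0.0652), and Rpl19 without SC 3 (1.51, adjusted p = 0.0517). The member not called was Rpl17, at 9.69, 23.9 and 16.0 in EC against 54.8 and 21.9 in SC, where SC 3 lay inside the range of EC. Rpl17 shares 100% of its coding windows with other genes. Its named pseudogene rows summed to 228, 306 and 203 in EC and to 940 and 823 in SC, without overlap, so this exception holds for the gene row alone.

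In the small subunit, all 5 proteins around the entry and exit of the messenger RNA (Rps2, Rps3, Rpsa, Rps26 and Rps28) were called higher in SC than in EC and in SMF. Rpsa, also known as the laminin receptor precursor, stood at 75.3, 90.9 and 73.3 in EC, 365 and 337 in SC and 45.4, 44.7 and 48.0 in SMF, with no overlap between the groups. Of the 3 proteins of the beak, Rps10 and Rps12 were called higher in SC than in EC, Rps27a was not, and all 3 were called higher than in SMF. Rps27a lost that call without SC 1, SC 3, SMF 1 or SMF 2 (2.02 to 2.52, limma adjusted p of 0.0687 to 0.111). The 4 members on the X chromosome (Rps4x, Rpl10, Rpl36a and Rpl39) were all called higher in SC in both comparisons; Rpl39 lost the call against EC without SC 1 (1.49, adjusted p = 0.0713).

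To ask which members left the shared shift, each library was divided by 1 factor, set so that the median difference of 47 core members (subunit genes that reached an FPKM of 10 in every library) was 0. This removes any scaling of a library. The log2 factors were -0.10, 0.56 and -0.17 for EC, 1.72 and 1.66 for SC and -1.24, -1.29 and -1.12 for SMF. The interquartile range of the 83 members then ran from -0.19 to 0.28 for SC minus EC, from -0.19 to 0.45 for SC minus SMF, and from -0.40 to 0.24 for SMF minus EC.

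Between SC and EC, 3 members were then called higher (Rps23, Rps13 and Rpl10a) and 1 lower (Rps4l), against 3.41% and 42.6% of all genes. Without the division, 16.4% of all genes were called lower. Because the division centres the members, the contrast of these shares is in large part set by it. Rps13 stood 1.05 ± 0.25 above the shared shift (limma adjusted p = 0.0107) and Rpl10a 0.79 ± 0.24 (0.0249). Neither held without SC 1 (Rps13 1.06, adjusted p = 0.0705; Rpl10a 0.80, 0.139) or without SC 3 (0.98, 0.0705; 0.77, 0.126), and Rpl10a also lost its call without any 1 of the SMF libraries (0.0521 to 0.0563) and with the replicate block (0.74, adjusted p = 0.0646). With pseudogene rows added, neither was called: Rps13 stood at 0.004 (adjusted p = 0.994) and Rpl10a at 0.50 (0.109). Without EC 2, 6 were called higher and 5 lower; without SC 3, none was called higher.

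Between SC and SMF, 8 members were called higher and 4 lower relative to the member median, against 6.25% and 33.2% (39.5% either way) of all genes. Here too the division centres the members, so the contrast of these shares is in large part set by it. Higher in SC were Rps23, Rpl3 (3.63 ± 0.26), Rps19 (1.58 ± 0.26), Rps4x (1.54 ± 0.25), Rpl27a (1.36 ± 0.24) and Rps6 (1.08 ± 0.27), with 2 more at 0.84 and 1.05. Rps6, the protein that S6 kinase phosphorylates, lost its call without SC 1, SC 3, SMF 1 or SMF 3 (1.01 to 1.15, limma adjusted p of 0.0539 to 0.0944). Rpl27a lost its call in the TPM table (0.15, adjusted p = 0.846). Lower in SC were Rpl3l (-8.14 ± 0.21), Rps27l (-2.64 ± 0.33), Rpl15 (-1.70 ± 0.25) and Rpl24 (-1.10 ± 0.22). Without SC 1 or SC 3, 4 were called higher, and without EC 2, 11 were called lower.

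Between SMF and EC, 10 members were called higher and 9 lower relative to the member median, against 20.7% and 30.7% (51.4% either way) of all genes, and because the division centres the members, their lower share is in large part set by it. Higher in SMF were Rpl3l (8.25 ± 0.19), Rps27l (1.87 ± 0.30), Rpl15 (1.49 ± 0.22), Rpl24 (1.04 ± 0.20), Rpl10a (1.02 ± 0.21) and Rplp1 (1.02 ± 0.27), with 4 more from 0.67 to 0.98. Rplp1 lost its call without SMF 2 (1.00, limma adjusted p = 0.0540). With pseudogene rows added, Rpl10a stood at 0.58 (adjusted p = 0.0429). Rpl24 shares 99.3% of its coding windows but has no row named as its pseudogene, so this sum cannot test it. Lower were Rpl3 (-3.32 ± 0.24), Rps4l (-2.90 ± 0.32), Rpl30 (-1.64 ± 0.30), Rps4x (-1.19 ± 0.23), Rps19 (-1.16 ± 0.23) and Rpl27a (-1.09 ± 0.21), with 3 more from -0.66 to -0.84. Rpl27a lost its call in the TPM table (-0.63, adjusted p = 0.250). Without EC 2, 16 were called higher and 14 lower.

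**Figure D3:**
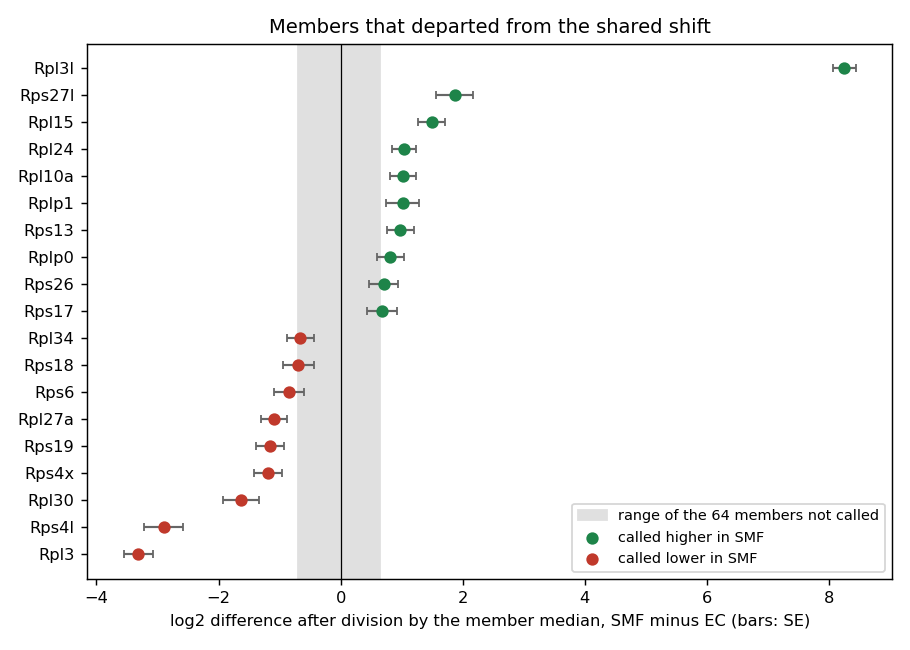
The 19 members called between SMF and EC after each library was divided by its member median; points are log2 differences with SE, and the grey band spans the 64 members not called. Rpl3l stands apart at 8.25 and Rpl3 at -3.32, far outside the band.

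Rps19, a small subunit protein mutated in Diamond-Blackfan anaemia, is given as an example of the genes below the shift in fibres: 11.8, 16.6 and 14.3 in EC, 57.5 and 58.9 in SC, and 2.68, 1.68 and 2.72 in SMF. Rpl15, of the large subunit, shows the other side: 6.08, 8.43 and 8.23 in EC, 18.1 and 20.4 in SC, and 9.47, 8.56 and 9.85 in SMF. Rps19 was lowest in SMF with no overlap, whereas the SMF values of Rpl15 lay just above those of EC. When the rows of named pseudogenes were added, Rps19 moved towards the shift, to -0.56 for SMF minus EC (limma adjusted p = 0.0402) and 0.94 for SC minus SMF (0.00894). In the same sums, Rpl15 stood 0.53 above the shift between SMF and EC and was no longer called (limma adjusted p = 0.0588), with -0.89 for SC minus SMF (0.0146), and Rpl30 turned from -1.64 to 0.69 (adjusted p = 0.0282). In the deposited TPM table Rpl30 also turned, to 0.67 (adjusted p = 0.295).

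Among the paralogues, the clearest difference was the exchange of Rpl3 and Rpl3l. Rpl3l (ENSMUSG00000002500, GRCm38 chr17:24727826-24736143) was listed at 0 in all EC libraries, at 0.57 and 0 in SC, and at 139, 115 and 140 in SMF. Rpl3 (chr15:80077781-80083406) went the other way, at 17.8, 38.8 and 26.3 in EC, 94.4 and 104 in SC and 0.62, 0.82 and 0.59 in SMF. Neither gene's SMF values overlapped those of the other groups.

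In SMF, Rpl3l ranked 3 of the 85 members by mean FPKM and its partner 80. Of the FPKM of the pair, Rpl3l held 99.6%, 99.3% and 99.6% in SMF, 0% in EC, and 0.60% and 0% in SC. These shares leave out the pseudogene rows of Rpl3. In SMF the Rpl3 row held 8.53% of the FPKM of Rpl3 and its named pseudogenes, so with them the Rpl3l share would be lower. Rpl3 fell by 4.03 ± 0.26 between EC and SMF and by 5.91 ± 0.29 between SC and SMF (limma adjusted p = 5.27e-06 and 3.53e-06). For Rpl3l the fitted differences, 7.04 ± 0.19 and 6.72 ± 0.21 (adjusted p = 1.13e-07 and 7.5e-07), depend on the added 1 because the other groups are at or near 0.

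With no shared run of read length in their coding sequences, Rpl3 and Rpl3l can be told apart. Of the coding windows of Rpl3l, 5.19% were found in another gene, the predicted gene Gm64443. Rpl3 shares 95.7% of its own, so its row and those of its pseudogenes have to be read together. Rpl3-ps1 stood at 148, 193 and 133 in EC, 427 and 409 in SC and 6.04, 5.47 and 5.66 in SMF, and Rpl3-ps2 was also lowest in SMF (1.18 to 1.72). With both added, Rpl3 fell by 4.64 between EC and SMF (limma adjusted p = 5.11e-07). The rows of gene and copies together were thus also lowest in SMF.

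**Figure D4:**
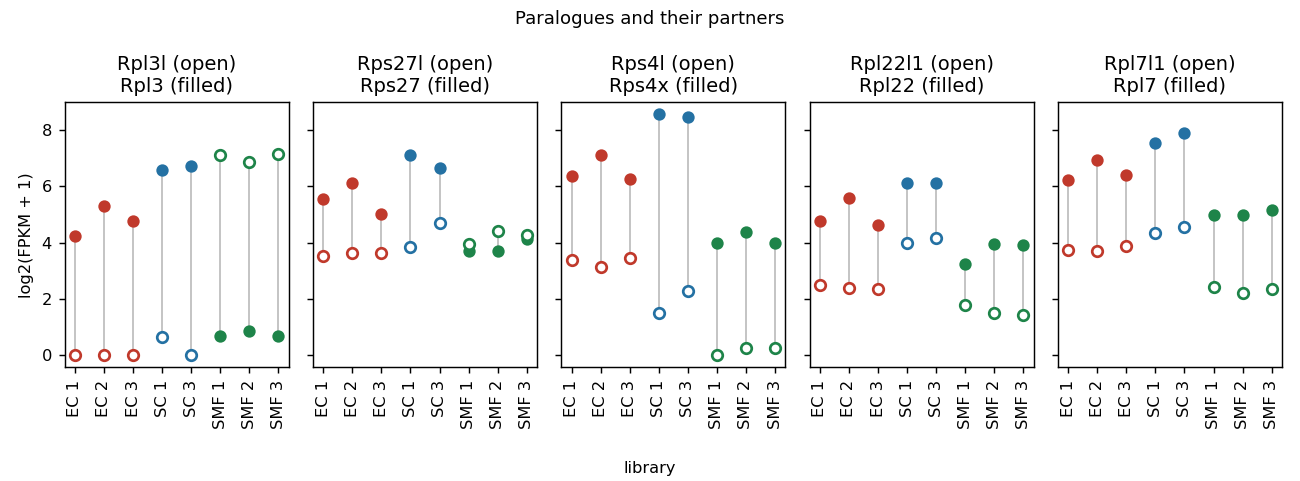
Levels of 5 paralogues (open circles) and their partners (filled circles) in each library, as log2(FPKM + 1), coloured by group. Rpl3l lies above Rpl3 only in SMF, Rps27l reaches Rps27 only in SMF, and Rps4l is highest in EC.

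Rps27l, a paralogue of Rps27 known as a target of p53, held a level in fibres that the row of its partner did not. Rps27l stood at 10.6, 11.3 and 11.3 in EC, 13.3 and 24.7 in SC, and 14.3, 20.4 and 18.1 in SMF, so SC and SMF overlapped. Rps27 stood at 46.0, 68.1 and 31.8 in EC, 136 and 99.5 in SC, and 12.2, 12.1 and 16.5 in SMF. Of the pair, Rps27l made up 19.7% ± 6.1 (SD, n = 3) in EC, 14.4% ± 7.8 (n = 2) in SC and 56.3% ± 5.5 (n = 3) in SMF. These shares are of the gene rows alone. Rps27 shares 100% of its coding windows with other genes, among them Rps27rt, and Rps27l shares 49.0%. The level of Rps27 and the shares therefore depend on how reads were assigned. The part of read assignment in them was not tested. Taken alone, its difference between SMF and EC was small (0.61 ± 0.24, limma adjusted p = 0.0499) and lost its call without EC 1, EC 2, EC 3, SMF 2 or SMF 3 (0.0865 to 0.145).

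Rps4l, a paralogue of the X-linked Rps4x (GRCm38 chr6:148354656-148355596), was the one member called lower than in EC in both SC and SMF under the deposited scaling. It stood at 9.50, 7.85 and 10.1 in EC, 1.81 and 3.85 in SC, and 0, 0.19 and 0.20 in SMF. The 3 groups did not overlap. Rps4l was lower in SC than in EC by -1.45 ± 0.24 and in SMF than in EC by -3.17 ± 0.22 (limma adjusted p = 0.00269 and 7.94e-06). Its share of the pair was 9.23% ± 3.4 in EC, 0.78% ± 0.42 in SC and 0.75% ± 0.67 in SMF.

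The ratio of paralogue to partner within a library does not depend on scaling where both values lie well above the 0.1 added to each. Where a gene is listed at or near 0 (Rpl3l in EC and SC, Rps4l in SMF), the added 0.1 sets the ratio, and its size is no measured fold. The ratio was tested over the 3 groups for the 5 pairs with values, by an exact permutation test of all 560 assignments of the libraries (smallest p possible 0.00357, adjusted over the 5 pairs). By this exact permutation test the groups differed for Rps4l (p = 0.0143, adjusted 0.0446), Rps27l (p = 0.0179, adjusted 0.0446) and Rpl3l (p = 0.0286, adjusted 0.0476). By the same exact permutation test they were not shown to differ for Rpl7l1 (p = 0.271, adjusted 0.339), at 12.5% ± 3.0, 9.03% ± 0.65 and 11.3% ± 1.1 of its pair in EC, SC and SMF, or for Rpl22l1 (p = 0.429, adjusted 0.429), at 12.6% ± 3.9, 18.8% ± 1.2 and 14.8% ± 6.7. With 1 library left out, fewer assignments remain and the adjusted p rose to 0.0635 to 0.127 for Rpl3l and Rps27l unless that library was EC 2 or SC 3, and to 0.0635 to 0.119 for Rps4l unless it was EC 2, SC 3 or SMF 1. The permutation result for Rpl7l1 passed without EC 2 (adjusted 0.0476). Adding the named pseudogenes to either gene of a pair that has them gave an adjusted p of 0.0536 for Rpl3l, Rps27l and Rps4l. With 1 added in place of 0.1, the log2 ratio of Rps4l, SMF minus EC, moved from -2.97 to -0.71 and that of Rpl3l from 15.45 to 11.07. Rpl10l and Rpl39l were at or near 0 in every library, with highest values of 0.32 in SC 1 and 0.40 in EC 3.

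How far the rows can be told apart was measured with windows of 50 bases of the coding sequence. Of the 84 members found in GENCODE M39, 23 had every window in the transcript of another gene, and the median member shared 85.9%. The table also holds 250 rows named as pseudogenes of 58 members, and these rows took 43.4% to 47.0% of the FPKM of members and pseudogenes together in each library. For 34 of the 58, the pseudogene rows summed higher than the gene. The share was about the same in all 3 groups, from 44.0% to 44.9% in SC, 45.4% to 47.0% in EC and 43.4% to 45.5% in SMF. Sums with pseudogene rows added hold only rows so named. Genes under other names that share windows were left out, such as Gm28037 for Rpl24, Gm9616 for Rps4x and Gm7536 for Rpl27a.

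Subunit genes with few shared windows give the same order of the groups. Rps3, at the entry of the messenger RNA, shared 8.05% of its windows and stood at 31.3, 58.8 and 35.3 in EC, 111 and 106 in SC and 11.5, 11.7 and 14.6 in SMF, with no overlap between the groups. Rpl8 shared 8.69% and Rpl4 20.2%. All 3 were called higher in SC in both comparisons. The log2 differences from EC were 1.41 for Rps3, 1.62 for Rpl8 and 1.65 for Rpl4, beside a median of 1.63 over the 55 members that share at least 80%. From SMF they were 3.02, 2.94 and 2.48, beside a median of 3.00.

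Rps23 is the member for which the assignment of reads matters most. Its row was listed at 0 in all EC and SMF libraries and at 68.3 and 65.7 in SC. Its whole coding sequence is shared, and the rows of Rps23-ps1 and Rps23-ps2 summed to 264, 350 and 267 in EC, 623 and 573 in SC and 88.6, 107 and 83.8 in SMF. With gene and pseudogenes added, the log2 difference between SC and EC was 1.19 (limma adjusted p = 0.00402) and between SMF and EC -1.64 (0.000163), within the range of the other members, and the difference from the member median was no longer called (-0.38 for SC minus EC, adjusted p = 0.267). No fold is given against the groups listed at 0.

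**Figure D5:**
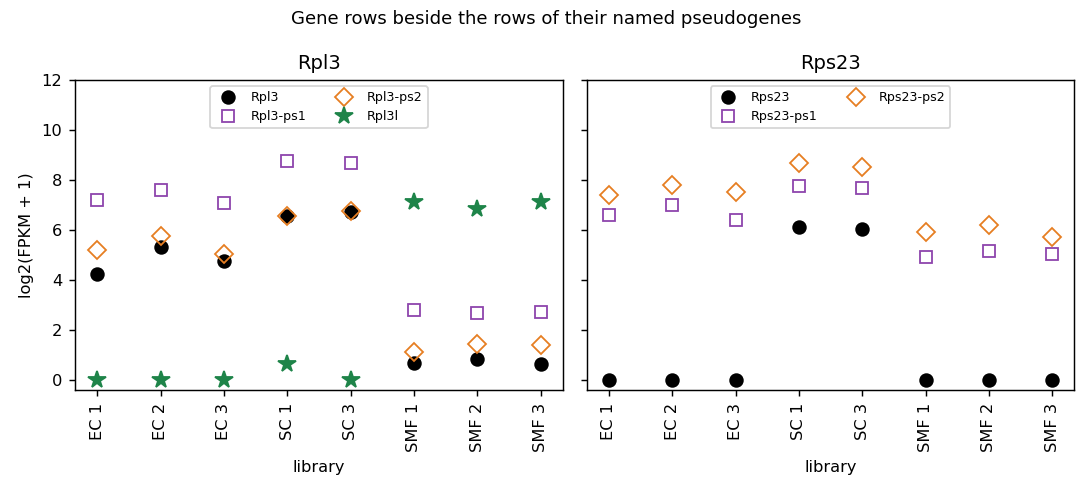
Rows of Rpl3 (left, with its paralogue Rpl3l) and Rps23 (right) beside the rows of their named pseudogenes in each library, as log2(FPKM + 1). The Rpl3 pseudogenes are low in SMF together with Rpl3, whereas the Rps23 pseudogenes are well above 0 in all libraries although the Rps23 row is at 0 in EC and SMF.

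Transcripts of Rps24 were less stable between the SC libraries than the gene. Of the members, 80 had 279 listed transcripts. For Rps24, which has alternative transcripts, the 468-base transcript stood at 1311 in SC 1 and 47.4 in SC 3 and the 837-base transcript at 27.8 and 774, while the gene stood at 758 and 797. In EC and SMF the 837-base transcript stood at 257, 405 and 267 and at 105, 99.8 and 119, close to the values of the gene. Other members were not examined in this way, and shares of transcripts were not compared between groups.

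Since the members moved together, their promoters were set side by side (RefSeq, GRCm38.p6, 40 bases before to 30 from the start site, on the strand of the gene). Capitals mark CTTTCC, a pyrimidine run of the kind found at the start of these messages, and CCGGAA or its reverse TTCCGG, which extends the GGAA core that ETS factors bind:
Rpl13a, chr7:45128716-45128785, minus strand: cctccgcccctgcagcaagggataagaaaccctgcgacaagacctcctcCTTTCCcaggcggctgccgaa
Rps27, chr3:90213619-90213688, minus strand: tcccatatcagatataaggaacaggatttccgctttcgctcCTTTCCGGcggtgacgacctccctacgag
Rps6, chr4:86857338-86857407, minus strand: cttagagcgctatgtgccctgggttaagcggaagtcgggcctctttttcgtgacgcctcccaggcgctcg
Rps27l, chr9:66946046-66946115, plus strand: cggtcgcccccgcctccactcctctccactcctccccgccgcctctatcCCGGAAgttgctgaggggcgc
Rpl3l, chr17:24727786-24727855, plus strand: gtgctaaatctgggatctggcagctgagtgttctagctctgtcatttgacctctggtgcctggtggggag
In Rps27 both marks overlap. The stretches of Rps6 and Rpl3l hold neither of these sequences in full, and the shorter core was not searched. Rps6 does have a pyrimidine run at its start site, ctctttttc, which a search for CTTTCC does not mark.

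RefSeq promoters were found for 63 members. CTTTCC on the gene's strand, within 50 bases of the start site, was present in 30.2% of them and in 5.43% of 27025 genes with a promoter. CCGGAA on either strand, from 250 bases before to 50 after the start, was present in 55.6% of members and 16.7% of genes. These are matches of letters, and binding was not measured. Pyrimidine runs with other letters, such as that of Rps6, are not counted.

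Other genes of the ribosome and its assembly were counted from lists. Of the ribosomal proteins named otherwise, Fau and Gnb2l1 (Rack1) were called higher in SC than in EC and in SMF, and Rpl36al, an autosomal copy of Rpl36a, was called higher than in EC (0.79, limma adjusted p = 0.0425) but not than in SMF (0.39, adjusted p = 0.210). Fau lost its call against EC without SC 1 (0.93, limma adjusted p = 0.0776) or with the top 50 genes left out of the scaling (0.64, adjusted p = 0.156). Rpl36al stood at 14.5, 25.6 and 18.9 in EC, 33.9 and 33.9 in SC and 23.2, 22.7 and 31.8 in SMF. Its SMF values therefore did not lie with the low level of most members.

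Factors that build the ribosome were counted next. Of 44 measured factors of large subunit assembly, 27 were called higher than in EC and 43 higher than in SMF, with none lower, against 21.2% and 56.5% of all genes called higher (median log2 0.94 and 1.53, beside 0.11 and 0.93 over all genes). Ncl, the nucleolar protein nucleolin, stood at 42.0, 45.8 and 43.2 in EC, 94.4 and 103 in SC and 21.3, 16.0 and 14.8 in SMF. Of 37 factors of ribosomal RNA processing and small subunit assembly, 20 were called higher than in EC with none lower, and 33 higher and 2 lower (Pno1 and Rrp12) than in SMF (medians 0.81 and 1.46).

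Pno1, a factor in the maturation of the small subunit, was highest in fibres: 2.70, 2.17 and 1.63 in EC, 5.31 and 6.18 in SC and 11.0, 11.1 and 10.7 in SMF. Of 17 tested subunits and factors of RNA polymerase I, which makes the ribosomal RNA, 8 were called higher in SC than in EC and 14 higher than in SMF, against 21.2% and 56.5% of all genes. Ubtf, which opens the ribosomal RNA genes, stood at 12.4, 12.5 and 13.4 in EC, 13.0 and 15.4 in SC and 1.96, 1.46 and 2.61 in SMF. Ubtf was not called between SC and EC (0.14 ± 0.19, limma adjusted p = 0.610) and was called higher in SC than in SMF (2.35 ± 0.19).

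Messages outside the ribosome that carry the same pyrimidine start were called higher in SC than in EC for 13 of 16 and than in SMF for 15 of 16 (medians 1.38 and 2.02), against 21.2% and 56.5% of all genes (medians 0.11 and 0.93). Of 11 measured host genes of small nucleolar RNAs, which guide the modification of ribosomal RNA, 8 and 10 were called higher; Gas5 stood at 13.6, 15.0 and 13.6 in EC, 38.5 and 39.8 in SC and 5.21, 3.45 and 3.95 in SMF. Of 22 regulators of ribosomal protein synthesis, 5 were called higher and 1 lower than in EC, and 13 higher than in SMF, shares close to the 21.2%, 16.4% and 56.5% of all genes or below them. Myc stood at 12.2, 16.6 and 11.6 in EC, 35.7 and 32.0 in SC and 5.41, 2.34 and 4.19 in SMF, and its call against EC was lost without SC 1 (1.21, limma adjusted p = 0.0608) or with the top 50 genes left out of the scaling (0.92, adjusted p = 0.0574).

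The labelled cell types carried their markers. The 8 endothelial markers summed to 1149 to 1167 in EC against at most 23.6 elsewhere, the 8 satellite cell markers to 832 and 853 in SC against at most 25.5, and the 8 fibre markers to 31202 to 33834 in SMF. Pax7 and Calcr were at 0 in EC. Fibre markers reached 186 and 286 in SC and 10.2 to 17.2 in EC, and 8 markers of fibro-adipogenic progenitors 261 and 263 in SC, 124 to 208 in EC and 26.1 to 47.9 in SMF. The 8 pericyte markers summed to 218 and 273 in SC, 226 to 698 in EC and 28.8 to 29.9 in SMF. In SC, 135 and 194 of this came from Acta2. Their part in the levels of the members was not tested.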

How the data were processed

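RNA of 3 EC, 2 SC and 3 SMF libraries was read as pairs of 50 bp from 10 ng of RNA with random primers, per the labels' protocols. HISAT2, StringTie, FastQC, Trimmomatic, bedtools and the build mm10 are named in the submitters' processing notes. Their versions, and how strand and reads with several matches were handled, are not stated in the sources used here. The deposited gene table holds FPKM, the deposited locus table TPM (used as an alternative; Rpl19 was not analysed there), and the deposited transcript table FPKM and read coverage, per the file headers. The ratio of coverage to FPKM puts the aligned bases at 278 to 368 Mb for EC and SC and 525 to 581 Mb for SMF.

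The 16700 genes that reached an FPKM of 1 in 2 or more libraries entered limma 3.58.1 (R 4.3.3, trend, 3 group means) on log2(FPKM + 1), two-sided, with Benjamini-Hochberg adjustment over all of them. A difference on this scale understates the change of low genes. Paralogue ratios had 0.1 added to both values. Exact permutation used SciPy 1.17.1. Coding sequences were compared with Biopython 1.88 by GENCODE identifiers, with no coordinates carried between builds. Named were paralogues and partners, the 5 most abundant members, up to 3 examples of each list, the 4 largest and 4 smallest differences, up to 6 exceptions, up to 6 called members in each direction relative to the member median, and up to 3 called genes in each direction from the other lists. Rpl17 and Rpl36al were named as the exceptions of short lists, after their values were seen. The members and lists were chosen with earlier results of these data known. Both calculations were tested on simulated data. Libraries of the same replicate number showed little correlation of their deviations from the group means (-0.06 to 0.09), and no block was used in the main fit. These correlations cannot tell whether the numbers pair the libraries by animal. With 2 SC libraries, the deviations of one mirror those of the other. Protein sequences were not used here. Results for some named genes are not reported here.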

Additional observations from a re-analysis of the deposited data

How the results depend on the processing

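The comparisons of SC kept their direction for the members as a whole under each alternative run. Those of SMF with EC did not. The number of members called lower in SC than in SMF was 3 with median-of-ratios, 3 with upper-quartile scaling and 2 with the top 50 genes of each group left out of the scaling. In SMF minus EC, 11, 18 and 3 members were called higher and 7, 4 and 32 lower under these scalings in the same order, and 1 was called higher without a filter on low values. Each scaling changes the level of a whole library, and which scaling is right was not tested.

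With median-of-ratios scaling, SMF minus EC turned to 0.41 for Rpl10, 1.096 for Rpl10a, 0.035 for Rpl22, 0.21 for Rpl22l1, 1.13 for Rpl24, 0.57 for Rpl4, 0.10 for Rpl5, 0.072 for Rpl8, 0.91 for Rplp0, 1.11 for Rplp1, 0.24 for Rplp2, 0.037 for Rps12, 1.01 for Rps13, 0.80 for Rps26 and 0.61 for Rpsa. With upper-quartile scaling it turned to 0.72 for Rpl10, 1.40 for Rpl10a, 0.35 for Rpl22, 0.46 for Rpl22l1, 1.45 for Rpl24, 0.99 for Rpl35, 0.29 for Rpl36a, 0.90 for Rpl4, 0.42 for Rpl5, 0.22 for Rpl7, 0.071 for Rpl7l1, 0.40 for Rpl8, 1.23 for Rplp0, 1.44 for Rplp1, 0.56 for Rplp2, 0.050 for Rps10, 0.35 for Rps12, 1.27 for Rps13, 0.20 for Rps24, 1.13 for Rps26, 0.053 for Rps3 and 0.94 for Rpsa. Without the 50 most abundant genes it turned to 0.19 for Rplp0 and 0.091 for Rps26. SC minus SMF turned under these 3 scalings to -0.51, -0.69 and -0.0052 for Rpl15 and to -1.46, -1.64 and -0.94 for Rps27l.

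Adding the rows of named pseudogenes was chosen after seeing the data. SMF minus EC then was -0.72 for Rpl15 and -1.64 for Rps23. Relative to the member median, Rpl30 turned to 0.69 for SMF minus EC (0.67 in the TPM table), and Rps23 to -0.38 for SC minus EC and -0.022 for SC minus SMF. Relative to the member median, SC minus EC then had 1 member higher and 2 lower, and SC minus SMF 7 lower. The number lower in SC minus EC was 2 with 0.1 added in place of 1 and 4 in the TPM table, where SC minus SMF had 7 lower. The log2 ratio of paralogue to partner with pseudogene rows added was 15.15 for Rpl3l, 2.52 for Rps27l and -3.14 for Rps4l (SMF minus EC), each with an exact permutation adjusted p of 0.0536. For Rpl3l and Rps4l the size of the ratio is set by the added 0.1 and is no measured fold. Except where a scaling or sum explains a turn by its construction, the cause was not tested.

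With the replicate number as a block, 2 members were called lower in SC minus EC relative to the member median. Whether the numbers pair the libraries is not known, and the other counts moved by less than 1.5 times.

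With 1 library left out, SC minus EC had 57 (without SC 1) to 76 members higher and 1 lower, SC minus SMF 78 to 81 and 1, and SMF minus EC 1 to 2 and 59 to 66. Relative to the member median these were 0 to 6 and 1 to 5, 4 to 10 and 4 to 11, and 7 to 16 and 6 to 14. The log2 ratio of paralogue to partner, SMF minus EC, ran from 15.17 to 15.73 for Rpl3l and from -3.35 to -2.53 for Rps4l. Both are set by the added 0.1, because Rpl3l is listed at 0 in EC and Rps4l at or near 0 in SMF. The ratio ran from 2.16 to 2.71 for Rps27l, -0.15 to 0.48 for Rpl22l1 and -0.37 to -0.0020 for Rpl7l1.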

Other observations

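The exchange of Rpl3 for Rpl3l in fibres had a counterpart outside the ribosome that was picked after its values were seen. Eef1a1, the elongation factor that brings transfer RNA to the ribosome, stood at 280, 549 and 275 in EC, 912 and 1002 in SC and 4.49, 7.83 and 10.6 in SMF. Eef1a2, its paralogue known from muscle and neurons, was listed at 0 in all EC libraries, stood at 0.75 and 2.18 in SC and reached 265, 238 and 286 in SMF. Of the pyrimidine-start list, Naca, known to have a muscle form, was the one gene called higher in SMF than in EC, at 12.0, 15.5 and 11.6 in EC, 41.2 and 39.5 in SC and 40.8, 38.1 and 37.0 in SMF.

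Across subunit genes, Spearman's rho of the log2 difference with the percentage of shared coding windows was 0.13 for SC minus EC, 0.15 for SC minus SMF and 0.04 for SMF minus EC, and with coding length 0.24, 0.10 and 0.06 (77 genes each). These genes share their libraries and are not independent, so the values are a description.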
